A study of Mus musculus with 18 samples.

Results

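Mitochondrial carriers of the solute carrier family 25 (SLC25) are proteins of the inner mitochondrial membrane that each move a particular metabolite, nucleotide, cofactor or ion between cytosol and matrix. All genes of the deposited table whose symbol is Slc25a followed by a number were taken, apart from the carnitine carrier Slc25a20 and the ornithine carrier Slc25a15, which left 42 of 18946 genes. Liver RNA was sequenced from 10 Old and 8 Young male C57BL/6J mice, an inbred laboratory strain, at the end of an insulin clamp (hyperinsulinemic and euglycemic), an infusion of insulin with enough glucose to keep blood glucose steady. Per the labels, the Old mice were 19.76 and the Young mice 6.18 months old (the design text gives 20 and 6 months, the growth protocol 21 and 6). Every mouse had fasted overnight and received insulin, so no liver without insulin was compared. Per the labels' protocols RNA was extracted with the RNeasy kit (5 Old, 5 Young) or the AllPrep kit (5 Old, 3 Young). Each library is a separate animal per the labels. The series asks how the livers of old and young mice differ under insulin.

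The carriers are built on the same fold, a tripled repeat of paired membrane helices around a central binding site. In hepatocytes they connect the matrix with glucose synthesis, urea synthesis, fat synthesis and heme synthesis, since the pathways are split between the compartments and substrates such as malate, citrate, aspartate, glutamate, glycine and phosphate must cross. ADP and ATP, coenzyme A, NAD, folate, S-adenosylmethionine, pyrimidine nucleotides, glutathione and iron have carriers of their own in the family.

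Levels are given as scaled TPM, the deposited TPM (a length-corrected share of a library's transcripts) multiplied by 1 factor per library so that most genes agree between libraries. Depth was high, at 85790735 to 127487820 recovered reads per library. Old replicate 14, an RNeasy library, stood apart: among Old livers it was the lowest or highest library in 20 of 36 tested members (55.6%), against 51.6% of all genes tested. Leaving it out moved the log2 age difference of 20 of 36 tested members by over 1.5 times or turned its sign. The share over all genes was not computed for this rule. Differences near 0 meet it easily, such as that of Slc25a11 (0.00289 with and -0.00772 without the library). Calls that Old replicate 14 decides are given with and without it. Of the 42 genes, 36 had at least 0.5 TPM in at least 8 libraries and were tested. The other 6, Slc25a2, Slc25a35, Slc25a40, Slc25a53, Slc25a27 and Slc25a43, were below that level and are given only as levels. Whether the authors counted by strand is not given in the sources used here, and without strand the reads of overlapping and antisense genes cannot be told apart. Slc25a5 has many near-identical processed copies in the genome, which makes its level uncertain.

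Promoter letters are shown for 3 members, because Slc25a25 and Slc25a33 had the most negative age differences of the tested members and Slc25a47 was the most abundant. RefSeq promoter sequences of build GRCm38.p6 were found for 32 of the 42 members, and the 250 bases before the start were read 5′ to 3′ on the gene's strand. Capitals mark the cAMP response element TGACGTCA, its shorter core TGACG, which reads CGTCA on the opposite strand, and the E-box CACGTG, a motif bound by basic helix-loop-helix factors. Slc25a25 is shown at the third of its 3 listed starts, chr2:32424067-32424316 on the minus strand. Slc25a33 lies at chr4:149774268-149774517 on the minus strand, and Slc25a47 at chr12:108850879-108851128 on the plus strand.

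Slc25a25: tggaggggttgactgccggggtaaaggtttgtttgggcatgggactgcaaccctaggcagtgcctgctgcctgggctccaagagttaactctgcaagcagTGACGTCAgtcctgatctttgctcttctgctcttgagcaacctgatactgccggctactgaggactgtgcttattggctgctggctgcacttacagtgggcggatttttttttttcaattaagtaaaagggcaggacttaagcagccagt

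Slc25a33: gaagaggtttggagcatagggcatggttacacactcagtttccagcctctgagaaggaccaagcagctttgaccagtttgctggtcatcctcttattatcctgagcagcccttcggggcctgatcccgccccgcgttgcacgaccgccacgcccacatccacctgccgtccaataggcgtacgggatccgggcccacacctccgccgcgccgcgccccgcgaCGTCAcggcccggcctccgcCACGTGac

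Slc25a47: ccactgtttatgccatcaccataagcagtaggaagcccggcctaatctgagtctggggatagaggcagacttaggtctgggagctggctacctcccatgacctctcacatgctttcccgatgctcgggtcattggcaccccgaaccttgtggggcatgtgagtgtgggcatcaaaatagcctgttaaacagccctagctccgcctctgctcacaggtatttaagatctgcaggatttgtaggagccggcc

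The full response element was present in 2 of the 41 windows of members, upstream of Slc25a25 and Slc25a36, and in 1.55% of the 32851 windows of all genes. Its core, which lies inside the full element, was present in 11 of the 41 windows and in 17.8% of all windows. The E-box was present in 6 of the 41 and in 6.02% of all windows. Slc25a33 holds the core and an E-box, and Slc25a47 holds none of the 3 motifs in this window. The other starts listed for Slc25a25 hold none of them either, nor do the 3 starts listed for Slc25a22. These are letter matches, and binding was not measured.

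Levels of the 42 genes spanned more than 3 orders of magnitude. Averaged over the 18 libraries, 10 members lay above 100 scaled TPM, 13 between 10 and 100, 11 between 1 and 10, and 8 below 1. Slc25a47, a carrier restricted largely to liver whose substrate is not settled, was the highest. It was followed by Slc25a5, an adenine nucleotide translocase that exchanges matrix ATP for cytosolic ADP, by Slc25a3, the phosphate carrier that feeds ATP synthase, and by Slc25a39, a glutathione importer. These 4 made up 51.9 to 65.2% of the summed level of the family in Old livers and 52.5 to 65.8% in Young livers. The sum over the family was 2633 to 3429 scaled TPM in Old livers (median 3038) and 3043 to 3901 in Young livers (median 3245), so the ranges overlapped.

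**Figure D1:**
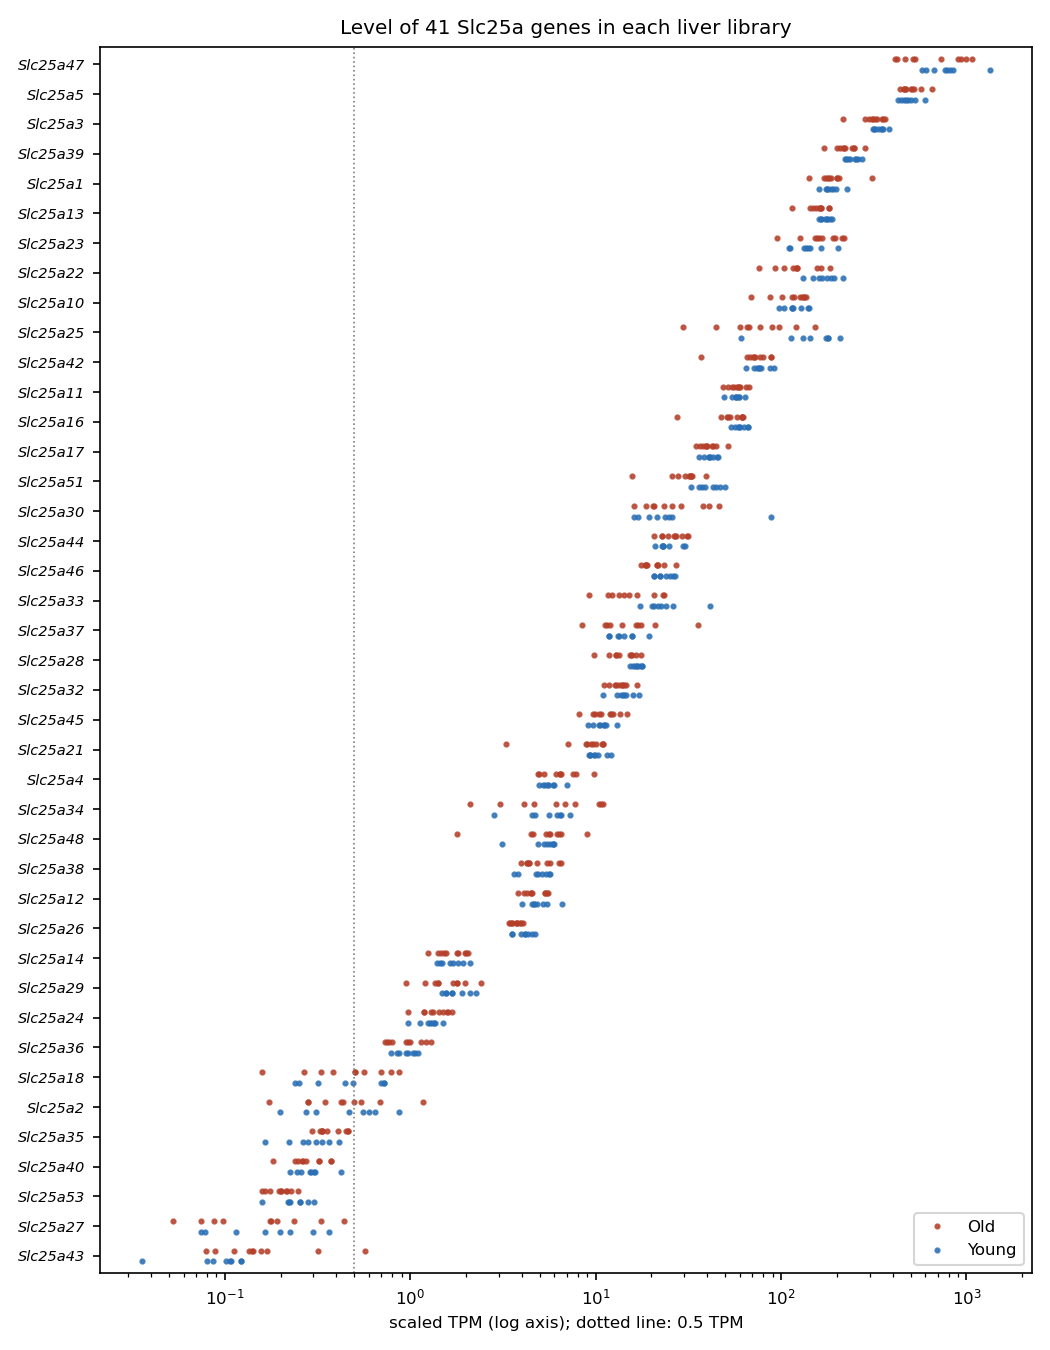
Scaled TPM (log axis) of 41 of the 42 Slc25a genes in each liver library, ordered by mean level, with the 10 Old libraries in the upper row and the 8 Young libraries in the lower row of each gene, and a dotted line at 0.5 TPM. In all 41 genes the Old and Young points overlap.

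Slc25a47 had 412 to 1071 scaled TPM in Old livers (median 628) and 574 to 1333 in Young livers (median 775). In 5 Old libraries it was below the lowest Young library, and the other 5 lay inside the Young range. Slc25a5 was tighter, at 438 to 648 scaled TPM in Old livers (median 486) and 427 to 596 in Young livers (median 477). Slc25a3 had 215 to 361 scaled TPM in Old livers (median 316) and 312 to 384 in Young livers (median 339), with Old replicate 14 alone at the bottom and 5 Old libraries below the lowest Young one. Slc25a39 had 170.4 to 283 scaled TPM in Old livers (median 219.9) and 222 to 272 in Young livers (median 243). In 5 Old libraries Slc25a39 was below the lowest Young library and in 1 above the highest. The ranges of the ages overlapped in each of these 4 most abundant members.

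In several pairs of related members 1 was far above the other in each liver. Slc25a5 exceeded Slc25a4, the adenine nucleotide translocase of heart and muscle, 53.7-fold to 106-fold in Old livers and 71.8-fold to 101-fold in Young livers. Slc25a13 (citrin), the aspartate-glutamate carrier of liver, exceeded Slc25a12 (aralar), the form of brain and muscle, 25.1-fold to 47.2-fold in Old livers and 28.9-fold to 41.3-fold in Young livers. The glutamate carrier Slc25a22 exceeded its paralog Slc25a18 109-fold to 727-fold in Old livers and 231-fold to 663-fold in Young livers. Slc25a39 exceeded its paralog Slc25a40 530-fold to 1319-fold in Old livers and 594-fold to 1208-fold in Young livers. Both of these lower paralogs were scarce, so the size of the ratios is uncertain. Slc25a18 had 0.159 to 0.866 and Slc25a40 0.183 to 0.422 scaled TPM over all libraries. Other pairs were closer to even. Of the iron carriers of the inner membrane, the ratio of Slc25a37 (mitoferrin-1, the erythroid form) to Slc25a28 (mitoferrin-2) was 0.537 to 2.76 in Old livers and 0.661 to 1.19 in Young livers, and Slc25a25 and Slc25a23, described further on, also lay near each other.

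Whether a member differs between the ages was tested with limma on log2(scaled TPM + 0.5), with RNA kit as a term and p-values adjusted over all 13895 tested genes by the Benjamini-Hochberg method. With an adjusted p under 0.05 as the threshold, 0 of 36 members were called in either direction, where 4.91% of all genes tested were called (2.44% higher, 2.47% lower). With no composition factor in the scaling it was 0 too, with 3.81% of all genes called (2.45% higher, 1.35% lower). With limma-voom on the recovered reads the count was 0 as well (4.68% of all genes). Without Old replicate 14 it was 2, Slc25a25 and Slc25a51 (7.02% of all genes), and with libraries weighted by their quality 5 (10.1% of all genes). At an unadjusted p under 0.05 there were 8 members (22.2%), against 23.4% of all genes. Of these, 7 had a negative difference (19.4% of the members, against 11.6% of all genes) and 1 a positive one. The 8 became 5 without Old replicate 8, without Young replicate 1 or in RNeasy libraries alone. They became 4 with clamp weight in the model and 3 in AllPrep libraries alone. The median log2 difference, Old minus Young, was -0.03 over the members and 0.00370 over all genes tested, and 20 members had a negative and 16 a positive one. The Old and Young ranges overlapped in all 42 members. Among all genes tested, 0.417% had ranges that did not overlap.

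**Figure D2:**
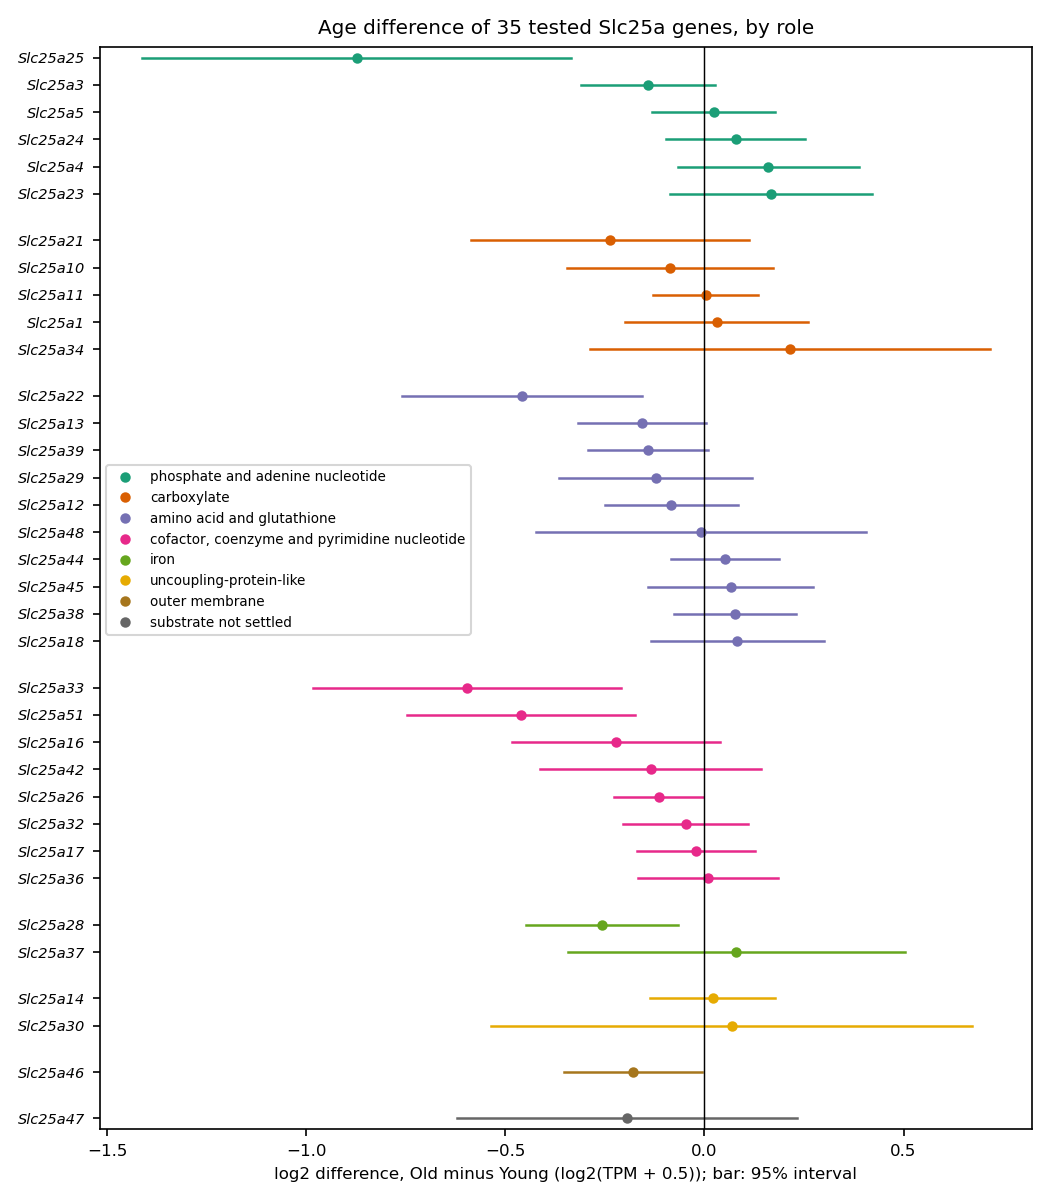
Log2 difference, Old minus Young, with its 95% interval for 35 of the 36 tested Slc25a genes, grouped and coloured by role. The 4 members farthest to the left are Slc25a25 at -0.87, Slc25a33 at -0.60, Slc25a51 at -0.46 and Slc25a22 at -0.46, and the largest positive difference is 0.21.

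Among the carriers of phosphate and adenine nucleotides, Slc25a25 had the largest age difference of the family, although it did not pass the threshold. It encodes a calcium-regulated carrier that exchanges ATP-magnesium for phosphate and so sets the adenine nucleotide pool of the matrix. Slc25a25 had 29.4 to 152 scaled TPM in Old livers (median 72.1) and 60.9 to 208 in Young livers (median 159). All 10 Old libraries were below the Young median and 3 were below the lowest Young library. Means were 80.3 ± 36.3 scaled TPM in Old livers (SD, n = 10) and 149 ± 46.7 in Young livers (SD, n = 8). The log2 difference was -0.87 ± 0.26 (SE, limma adjusted p = 0.0579).

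Old replicate 14 was the lowest library for Slc25a25. Without it the log2 difference was smaller, -0.66, and passed (limma adjusted p = 0.0344). Over its 31 alternatives the adjusted p ran from 0.0301 to 0.555 and 5 made the call. Within RNeasy libraries the difference was -1.10 (29.4 to 152 scaled TPM in Old and 144 to 208 in Young). Within AllPrep libraries it was -0.57 (44.4 to 89.0 scaled TPM in Old and 60.9 to 132 in Young). The negative sign held in each kit, and neither kit alone made the call.

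Slc25a25 has a close relative in liver, Slc25a23, with the same exchange. Slc25a23 had 94.6 to 218 scaled TPM in Old livers (median 164) and 110.4 to 203 in Young livers (median 138), a log2 difference of 0.17 ± 0.12 (SE, limma adjusted p = 0.424). The ratio of Slc25a25 to Slc25a23 was 0.204 to 1.00 in Old livers (median 0.425) and 0.369 to 1.62 in Young livers (median 1.23). Slc25a25 was below Slc25a23 in each Old liver, but only just in Old replicate 16 (152.02 against 152.06 scaled TPM). The Young median ratio was above 1, and the ranges overlapped. Between the kits the log2 differences, RNeasy minus AllPrep, had opposite signs. Slc25a25 stood at 0.55 and was not called (limma adjusted p = 0.158), and Slc25a23 stood at -0.41 (limma adjusted p = 0.0247). In Young livers the median of Slc25a25 was above that of Slc25a23 in RNeasy libraries (179 against 136 scaled TPM). It was below it in AllPrep libraries (113 against 165). Slc25a24, a less abundant relative, stood at 0.08 and Slc25a4 at 0.16 on the log2 scale (0.08 without Old replicate 14). Slc25a5 (0.02 ± 0.07 SE, limma adjusted p = 0.882) and Slc25a3 (-0.14 ± 0.08 SE, limma adjusted p = 0.294) had narrow intervals, -0.13 to 0.18 and -0.31 to 0.03. Without Old replicate 14 Slc25a3 stood at -0.08.

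The carriers of cofactors, coenzymes and pyrimidine nucleotides had 0 of 9 tested members called. Of the 9, 7 had a negative difference, against 49.1% of all genes tested. At an unadjusted p under 0.05 there were 4 (3 lower, 1 higher), against 23.4% of all genes tested. Slc25a51, which imports NAD into the matrix, had 15.7 to 39.2 scaled TPM in Old livers (median 32.2) and 32.7 to 49.6 in Young livers (median 41.0). All 10 Old libraries were below the Young median and 8 were below the lowest Young library, with Old replicate 14 far below the rest. Means were 30.2 ± 6.18 scaled TPM in Old livers (SD, n = 10) and 41.2 ± 5.77 in Young livers (SD, n = 8). The log2 difference was -0.46 ± 0.14 (SE, limma adjusted p = 0.0592).

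Without Old replicate 14 the difference of Slc25a51 was -0.34 and passed (limma adjusted p = 0.0221). Its adjusted p ran from 0.00873 to 0.494 over 31 alternatives, of which 4 made the call. The kits gave unequal values, -0.69 in RNeasy libraries (-0.50 without Old replicate 14, limma adjusted p = 0.0381) and -0.16 in AllPrep libraries (limma adjusted p = 0.494). The test of that inequality gave an interaction of -0.54 (limma adjusted p = 0.975).

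Slc25a33, a pyrimidine nucleotide carrier needed for the synthesis of mitochondrial DNA and RNA, had 9.16 to 23.2 scaled TPM in Old livers (median 14.7) and 17.4 to 41.4 in Young livers (median 22.0). In 7 Old libraries it was below the lowest Young library, and the other 3 lay inside the Young range. Its log2 difference was -0.60 ± 0.18 (SE, limma adjusted p = 0.0685). It was -0.40 in RNeasy and -0.86 in AllPrep libraries, and Young replicate 1, an AllPrep library, stood above the other Young libraries. When clamp weight was added to the model, the difference was -0.05 (limma adjusted p = 0.959, and 0.0301 to 0.959 over all alternatives). Old mice weighed 35.1 to 55 g and Young mice 26.6 to 34.8 g, so weight and age cannot be told apart. Its relative Slc25a36 was low, at 0.731 to 1.29 scaled TPM in Old livers and 0.791 to 1.10 in Young livers, with a log2 difference of 0.00909.

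Of the remaining cofactor carriers, Slc25a26, which imports S-adenosylmethionine, showed the tightest Old group. It had 3.40 to 4.04 scaled TPM in Old livers (median 3.74) and 3.53 to 4.71 in Young livers (median 4.16), and all 10 Old libraries were below the Young median. Its log2 difference was small, -0.11 ± 0.05 (SE, limma adjusted p = 0.202). The coenzyme A carriers Slc25a42 and Slc25a16, the peroxisomal carrier Slc25a17 and the folate carrier Slc25a32 ranged from -0.22 to -0.02. Without Old replicate 14 Slc25a16 stood at -0.10, against -0.22 with it, and Slc25a42 at -0.00914, against -0.13.

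**Figure D3:**
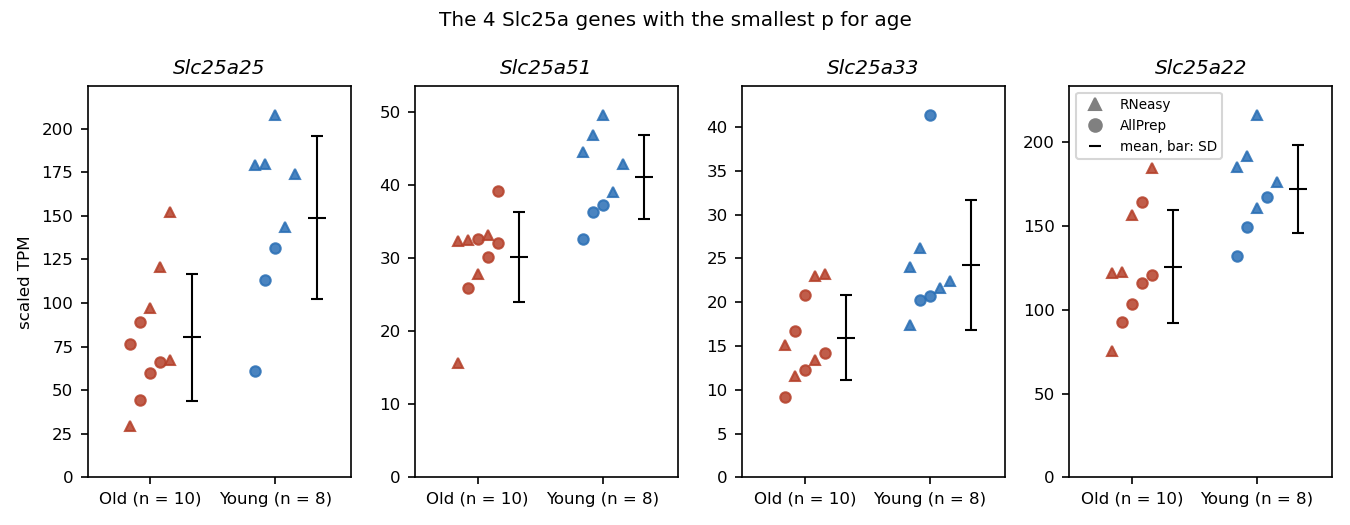
Scaled TPM of Slc25a25, Slc25a51, Slc25a33 and Slc25a22 in 10 Old (left) and 8 Young (right) livers, with triangles for RNeasy and circles for AllPrep libraries and the mean with its SD beside them. Most Old points lie below the Young mean in each panel, while the ranges overlap.

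Carriers of amino acids and glutathione had 0 of 10 tested members called and a median log2 difference of -0.05. Slc25a22, which brings glutamate into the matrix, had 75.7 to 185 scaled TPM in Old livers (median 121) and 132 to 216 in Young livers (median 172). In 9 of 10 Old livers it was below the Young median, in 7 below the lowest Young library, and Old replicate 14 was again the lowest. The log2 difference was -0.46 ± 0.14 (SE, limma adjusted p = 0.0704), with -0.54 in RNeasy and -0.35 in AllPrep libraries. Slc25a13 (-0.16 ± 0.08 SE, limma adjusted p = 0.222) and Slc25a39 (-0.14 ± 0.07 SE, limma adjusted p = 0.238) had smaller differences. The other members of the group, among them the glycine carrier Slc25a38 of heme synthesis and the branched-chain amino acid carrier Slc25a44, ranged from -0.12 to 0.08. Slc25a2 and Slc25a40 were below the level tested.

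Carriers of carboxylates had 0 of 5 tested members called, and 0 at an unadjusted p under 0.05, against 23.4% of all genes tested. Slc25a1, which exports citrate for fat and sterol synthesis, had 142 to 309 scaled TPM in Old livers (median 184) and 160.5 to 226 in Young livers (median 182). The highest Old value belonged to replicate 14 and the next Old library had 204, so the other 9 Old livers lay close to the Young ones. The malate-linked carriers Slc25a10 (-0.09) and Slc25a11 (0.00289) and the oxodicarboxylate carrier Slc25a21 (-0.24, and -0.08 without Old replicate 14) did not pass either. Slc25a34, a carrier with weakly defined substrates, had the largest positive difference of the family, 0.21 ± 0.24 (SE, limma adjusted p = 0.615), with 2.11 to 11.0 scaled TPM in Old livers and 2.85 to 7.27 in Young livers. Its lowest Old library was replicate 14. Without it the difference was 0.43 (limma adjusted p = 0.0711), and in RNeasy libraries without it 0.59 (limma adjusted p = 0.0610).

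Both mitoferrins were tested, and 0 were called. Slc25a28 had 9.86 to 17.6 scaled TPM in Old livers (median 14.3) and 15.2 to 17.9 in Young livers (median 16.8). In 9 of 10 Old livers it was below the Young median, and the spread was wider among Old livers (SD 2.36) than among Young livers (SD 0.912). Its log2 difference was -0.26 ± 0.09 (SE, limma adjusted p = 0.102). Slc25a37 had 8.44 to 35.6 scaled TPM in Old livers (median 15.3) and 11.8 to 19.4 in Young livers (median 13.8), and the highest value came from Old replicate 8. The summed level of 9 erythroid marker genes, cells in which Slc25a37 is abundant, was 435 to 10211 scaled TPM in Old livers and 1277 to 4594 in Young livers, and its part in the Slc25a37 values was not tested. In bulk tissue, fewer cells of a type and less RNA per cell cannot be told apart.

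Among the carriers related to uncoupling proteins, Slc25a30 had opposite signs in the kits. It had 16.0 to 46.3 scaled TPM in Old livers (median 24.7) and 16.2 to 87.9 in Young livers (median 22.5). Young replicate 13 alone reached 87.9, and the next Young library had 25.7. The log2 difference was 0.07 ± 0.29 with both kits, 0.62 in RNeasy and -0.67 in AllPrep libraries, and the interaction of 1.28 had an unadjusted p of 0.0230 (limma adjusted p = 0.975). In AllPrep libraries it had 16.0 to 29.0 scaled TPM in Old livers and 19.3, 24.9 and 87.9 in Young livers, so both other Young values lay inside the Old range. Without Young replicate 13 the interaction was 0.62 (unadjusted limma p = 0.127) and the age difference 0.39 (limma adjusted p = 0.253). Slc25a14 stood at 0.02. Slc25a46, an unusual member that sits in the outer membrane and takes part in mitochondrial shape, had a log2 difference of -0.18 ± 0.08 (SE, limma adjusted p = 0.200).

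**Figure D4:**
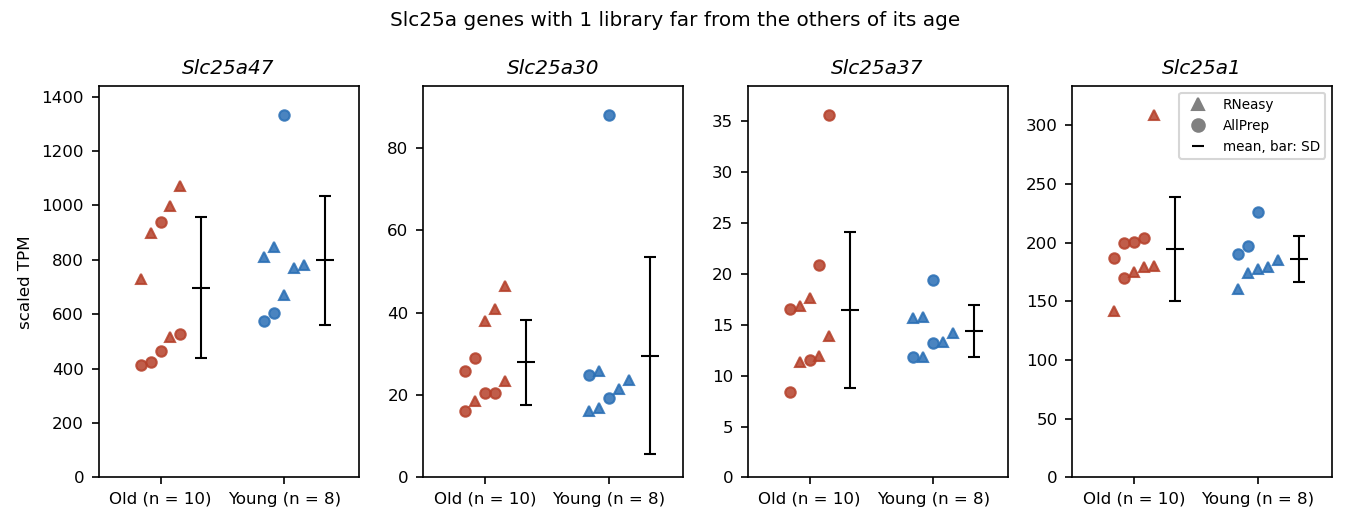
Scaled TPM of Slc25a47, Slc25a30, Slc25a37 and Slc25a1 in 10 Old (left) and 8 Young (right) livers, with triangles for RNeasy and circles for AllPrep libraries. In each panel 1 library stands apart: Young replicate 1 at 1333, Young replicate 13 at 87.9, Old replicate 8 at 35.6 and Old replicate 14 at 309.

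Slc25a47 had a log2 difference of -0.19 ± 0.20 (SE, limma adjusted p = 0.590). It was 0.08 in RNeasy and -0.57 in AllPrep libraries, and 0.74 when clamp weight was added to the model, so its direction depended on these settings. In RNeasy libraries it had 516 to 1071 scaled TPM in Old livers and 669.7 to 848 in Young livers. In AllPrep libraries it had 412 to 938 scaled TPM in Old livers and 574 to 1333 in Young livers.

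**Figure D5:**
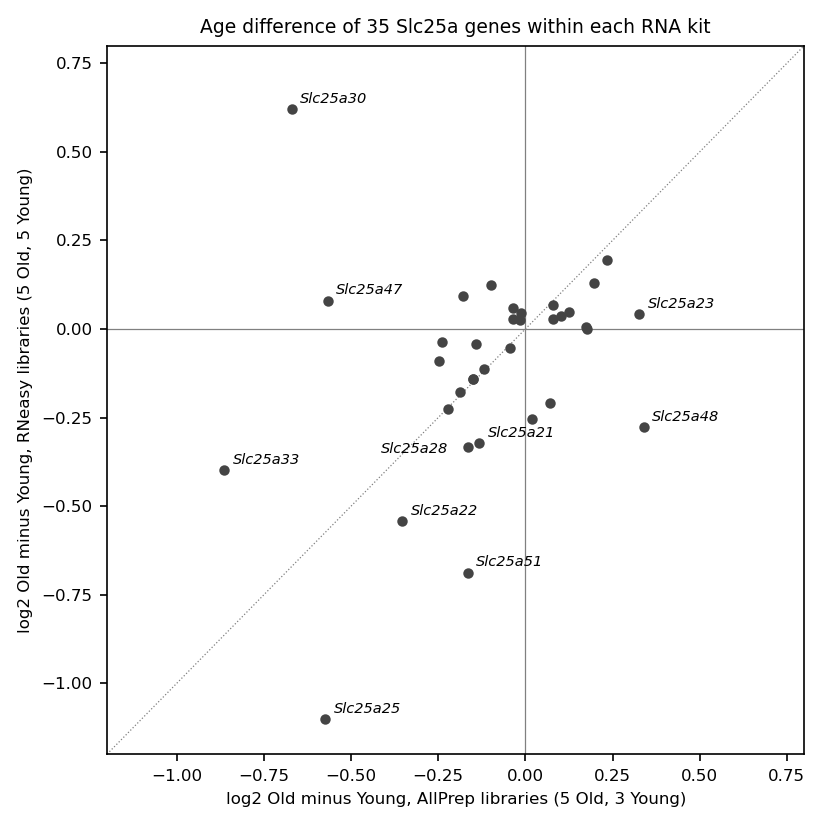
Log2 difference, Old minus Young, of 35 of the 36 tested Slc25a genes in AllPrep libraries (horizontal) and in RNeasy libraries (vertical), with the dotted line where both are equal. Slc25a25, Slc25a33, Slc25a22 and Slc25a51 lie below 0 on both axes, whereas Slc25a30, at -0.67 and 0.62, and Slc25a47, at -0.57 and 0.08, have opposite signs.

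For a difference of the age effect between the kits 0 of 36 members were called (limma, lowest adjusted p 0.975), as were 0% of all genes, and 2, Slc25a30 and Slc25a51, had an unadjusted p under 0.05 (against 4.22% of all genes). That count was 0 without Young replicate 13, 4 without Old replicate 5, 1 without Old replicate 7, 8, 9 or 18 or Young replicate 1, 2, 4, 10, 11 or 12, and 2 or 3 without any other library. With limma-voom 0 were called too. Some members differed between libraries of the 2 kits. Clamp weight of Old mice was 35.1 to 45.5 g in RNeasy and 39.5 to 55 g in AllPrep libraries. In Young mice it was 27.2 to 33.1 g and 26.6 to 34.8 g, and its part in the kit differences was not tested. Comparing RNeasy with AllPrep libraries, 2 members were higher and 2 lower, against 12.6% and 5.65% of all genes tested (18.3% in either direction). Slc25a38 (log2 difference 0.35 ± 0.07 SE, limma adjusted p = 0.00211) and Slc25a18 (0.48 ± 0.10 SE, limma adjusted p = 0.00293) were higher in RNeasy libraries. Slc25a44 (-0.29 ± 0.06 SE, limma adjusted p = 0.00432) and Slc25a23 (-0.41 ± 0.12 SE, limma adjusted p = 0.0247) were lower in them. With no composition factor in the scaling, which moved the median of all genes to 0.11, 6 members were higher and 0 lower (limma), against 21% and 0.511% of all genes. Both lower calls were lost, Slc25a44 at -0.15 (limma adjusted p = 0.117) and Slc25a23 at -0.27 (0.139).

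Members were also set against traits of the mice with age and kit as terms. For the percent by which insulin suppressed glucose production, 0 of 36 members were called (limma, lowest adjusted p 0.545), as were 0% of all genes, and 4 had an unadjusted p under 0.05, against 9.12% of all genes. The 4 became 1 without Old replicate 17, 1 in Old libraries alone and 0 in Young libraries alone, and 3 to 5 without any other library. Slc25a51 had the smallest p, with a slope of -0.0136 ± 0.00495 on the log2 scale per percentage point (SE, unadjusted limma p = 0.0136). Slc25a32, Slc25a4 and Slc25a37 followed. For liver citrate synthase flux 0 members were called either (limma, lowest adjusted p 0.925), as were 0% of all genes. At an unadjusted limma p under 0.05 there were 2, among them Slc25a16 (0.0499), against 3.2% of all genes. The 2 became 0 without Old replicate 5, 9 or 14 or Young replicate 2, 1 without Old replicate 7, 15, 16 or 17 or Young replicate 1, 4, 10, 11 or 13, and 2 without any other.

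Genes around the carriers were taken as 5 lists of 79 distinct genes. Of all genes tested, 4.91% were called for age (2.44% higher, 2.47% lower) and 49.1% had a negative difference. The machinery that imports carrier proteins had 0 of 16 tested members called, with a median log2 difference of -0.10, and 13 negative. Other transport of the mitochondrial membranes had 0 of 17 called and a median of 0.04. That list also holds proteins of the outer membrane, Vdac1, Vdac2, Vdac3, Mtch1 and Mtch2. Without Old replicate 14, 1 was called, the serine transporter Sfxn1, at 0.28 (limma adjusted p = 0.0211). With all libraries it stood at 0.23 (limma adjusted p = 0.0801). Its members Mpc1 and Mpc2, which form the pyruvate carrier, stood at 0.06 and -0.16, the uncoupling protein Ucp2 at 0.04, and the carrier-like outer membrane proteins Mtch1 and Mtch2 at 0.05 and -0.24 (limma adjusted p = 0.172). Mitochondrial content and biogenesis had 1 of 16 called, lower, the mitochondrial RNA polymerase Polrmt. Polrmt had 8.79 to 12.0 scaled TPM in Old livers and 10.7 to 13.2 in Young livers, a log2 difference of -0.23 ± 0.06 (SE, limma adjusted p = 0.0422).

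Enzymes that work with the carboxylate and aspartate carriers had 2 of 14 called, both lower, where 2.47% of all genes tested were called lower. Got1, the cytosolic aspartate aminotransferase of the malate-aspartate shuttle, had 86.0 to 328 scaled TPM in Old livers (median 139) and 230.4 to 297 in Young livers (median 256). Its log2 difference was -0.78 ± 0.21 (SE, limma adjusted p = 0.0393), while its mitochondrial partner Got2 stood at 0.05 (limma adjusted p = 0.693). Pck1, which uses oxaloacetate for glucose synthesis, was the other, at -0.99. The shuttle carriers Slc25a11, at 0.00289, and Slc25a13, at -0.16, did not pass.

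Heme and iron-sulfur synthesis, which receives glycine and iron through carriers, had 2 of 15 called, both lower (1, Alas1, without Old replicate 14). Among all genes tested 2.47% were called lower. Alas1, the rate-limiting enzyme of heme synthesis in liver, had 64.7 to 168 scaled TPM in Old livers (median 139) and 121 to 394 in Young livers (median 239), a log2 difference of -0.93 ± 0.21 (SE, limma adjusted p = 0.0197). The glycine carrier Slc25a38 (0.08) did not pass, nor did the iron carriers. In all, 5 of the listed genes were called, against 4.91% of all genes tested. In RNeasy libraries alone 0 listed genes were called (limma), with 6 higher and 6 lower among all 13895 genes tested.

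Cell type markers were read beside these values. Of 10 hepatocyte markers 0 were called and 7 had a negative difference (49.1% of all genes tested did), with a median of -0.06. Their sum was 106217 to 168938 scaled TPM in Old livers, highest in Old replicate 14, and 98520 to 139043 in Young livers. The sum rests largely on Alb, with means of 85344 scaled TPM in Old and 68847 in Young livers. Tat, a tyrosine-degrading aminotransferase of hepatocytes, stood at -0.88 (limma adjusted p = 0.0575) and at -0.61 without Old replicate 14 (limma adjusted p = 0.00263). Of 8 B and plasma cell markers 2, Ighm and Jchain, were higher and 0 lower, against 2.44% and 2.47% of all genes tested. The sum over the 8 was 54.9 to 243 in Old livers and 14.7 to 66.0 in Young livers. Of 10 Kupffer cell and macrophage markers 0 were called and 8 had a positive difference, with a sum of 344 to 1069 scaled TPM in Old livers (median 673) and 336 to 703 in Young livers (median 473). Of 9 stellate cell markers 0 were called and 9 had a positive difference, with a sum of 229 to 384 in Old livers (median 309) and 212 to 333 in Young livers (median 231). Markers of T and NK cells, endothelial cells, cholangiocytes, erythroid cells and adipocytes had 0 called of 8, 9, 5, 8 and 2 tested. The cholangiocyte sum was highest in Old replicate 14, at 367, and without it 1 of that list, Tstd1, was higher, at 0.60. Tstd1 alone reached 279 scaled TPM in Old livers. With all libraries 3 of the 5 tested cholangiocyte markers had a negative and 2 a positive difference, with a median of -0.18. Of the 5 adipocyte markers looked for, 3 had no row in the deposited table, which holds no gene at 0 in every library. The part of other cells in the values of the carriers was not tested.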

How the data were processed

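The deposited table holds TPM for 18946 genes in 18 libraries, computed by the authors. The submitters' processing notes name STAR 2.7.9a, Subread and featureCounts, and the builds GRCm39 and mm10, with no role for each. TPM values of a gene stood in whole-number ratios between libraries, which gave back reads for 18946 of 18946 genes (largest distance from a whole number 2e-08). These are the smallest whole numbers in those ratios. Where the reads of a gene share a common divisor over all libraries, the true numbers are larger.

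TPM was scaled with a trimmed mean of ratios on the log scale (30% of ratios, 5% of levels). limma 3.58.1 in R 4.3.3 was fitted with a variance trend to log2(TPM + 0.5), with age and kit as terms, to the 13895 genes that reached 0.5 TPM in 8 libraries or more. On this scale the change of a low gene is understated. Calls have a Benjamini-Hochberg adjusted p under 0.05. The scripts were tested on simulated data. Python 3.11.15, numpy 2.4.6, pandas 2.3.3 and matplotlib 3.10.9 were used.

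The members and lists were chosen with earlier results of these data known. Values per library are given for called members, the 4 with the smallest p not called and the 4 most abundant, and other members with values were chosen after these were seen. Of the lists, called genes and Mpc1, Mpc2, Ucp2, Mtch1 and Mtch2 were named, and other genes after their values were seen. The totals include 1 member, left out of the plots, and 1 listed gene that are not reported here. Alternatives were the scaling, filter, pseudocount, library weights, kit term, each kit alone, clamp weight, limma-voom on reads and each library left out. RNeasy libraries without Old replicate 14 and the kit comparison were added after seeing the data.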

Additional observations from a re-analysis of the deposited data

Results flagged for a closer look

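Each of the 42 members was checked within each age for a highest or lowest library whose gap to the next one took up an unusual share of the group's range. Of 84 groups checked, 13 met the rule, where chance flags about 1 in 20 groups, and members of 1 library are not independent of each other.

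Old replicate 14 accounted for 6 of them. It was lowest among Old livers in Slc25a42 (36.9 scaled TPM, next 65.1), Slc25a16 (27.3, next 47.3), Slc25a3 (215, next 285) and Slc25a21 (3.31, next 7.11), and highest in Slc25a1 (309, next 204) and Slc25a43 (0.569, next 0.317). Young replicate 1 accounted for 3, as the highest Young library in Slc25a47 (1333, next 848) and Slc25a33 (41.4, next 26.2) and the lowest in Slc25a48 (3.13, next 4.88). The other 4 were Slc25a37 in Old replicate 8 (35.6, next 20.9), Slc25a2 in Old replicate 17 (1.17, next 0.689), Slc25a30 in Young replicate 13 (87.9, next 25.7) and Slc25a40 in Young replicate 12 (0.422, next 0.307). What sets these libraries apart was not tested.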

How the results depend on the processing

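No paired analysis was possible because no replicate number occurs in both ages. The count of members called for age was 0 and became 5 with library weights (among them Slc25a25, Slc25a51, Slc25a33 and Slc25a22), 1 in RNeasy libraries without Old replicate 14 (Slc25a51), and 0 to 2 with 1 library left out. The library left out gave Slc25a22 (Old 5), Slc25a22 and Slc25a28 (Old 6), Slc25a51 (Old 8), Slc25a25 and Slc25a51 (Old 14), Slc25a25 and Slc25a33 (Old 16, Old 17) and Slc25a25 (Young 10). The count of listed genes called was 5, and 3 with no composition factor, 8 with library weights, 3 with no kit term, 1 in AllPrep libraries alone, 0 in RNeasy libraries alone, 0 without Old replicate 14 there, 0 with body weight as a term, and 2 to 5 with 1 library left out (3 without Old 7 or Young 1, 11 or 13, and 2 without Old 8, 9, 15 or 17 or Young 2, 3, 4, 10 or 12). The count for the kit was 4, and 11 with library weights and 3 to 8 with 1 library left out (8 without Old replicate 14). For all 13895 genes tested the kit calls were 1755 higher and 785 lower. They rose to 2400 and 1765 with library weights and to 2046 and 1237 without Old replicate 14. For all genes the age calls were 339 higher and 343 lower, and 341 and 188 with no composition factor, which moved the median of all genes to 0.05. These all-gene age calls were 704 and 697 with library weights, and 33 and 29 in RNeasy libraries without Old replicate 14. With 1 library left out they ran from 176 and 184 (Young 10) to 510 and 466 (Old 14). In AllPrep libraries alone, the log2 difference changed its sign to give Slc25a1 -0.10, Slc25a10 0.0709, Slc25a11 -0.0364, Slc25a14 -0.0349, Slc25a30 -0.67, Slc25a36 -0.0153, Slc25a42 0.0178, Slc25a48 0.34, Slc25a5 -0.0126 and Mpc1 -0.0133. In RNeasy libraries alone, the log2 difference changed its sign to give Slc25a17 0.0919, Slc25a24 -5.23e-05, Slc25a47 0.0801, Mpc2 0.0186 and Ucp2 -0.0331. In RNeasy libraries without Old replicate 14 (added after seeing the data), the log2 difference changed its sign to give Slc25a1 -0.062, Slc25a13 0.0106, Slc25a17 0.00841, Slc25a24 -0.0365, Slc25a29 0.0187, Slc25a36 -0.0304, Slc25a37 -0.0832, Slc25a4 -0.0427, Slc25a45 -0.0729, Slc25a5 -0.000773, Mpc2 0.00314 and Ucp2 -0.39. With body weight as a term, the log2 difference changed its sign to give Slc25a11 -0.0427, Slc25a23 -0.28, Slc25a24 -0.18, Slc25a37 -0.14, Slc25a44 -0.12, Slc25a45 -0.0916, Slc25a47 0.74, Slc25a5 -0.0794, Mpc2 0.31, Mtch1 -0.0705 and Ucp2 -0.11. With a filter of 2 TPM, the log2 difference changed its sign to give Slc25a48 0.00737. With library weights, the log2 difference changed its sign to give Slc25a1 -0.0353, Slc25a30 -0.0244, Slc25a36 -0.0154, Slc25a37 -0.0773, Slc25a48 0.11 and Ucp2 -0.19. With no kit term, the log2 difference changed its sign to give Slc25a14 -0.00643, Slc25a36 -0.00181 and Slc25a48 0.0167. With no composition factor, the log2 difference changed its sign to give Slc25a17 0.0357, Slc25a32 0.00881 and Slc25a48 0.0415. With 1 library left out, members whose sign changed ranged over Slc25a1 -0.0703 to 0.0841, Slc25a10 -0.15 to 0.000516, Slc25a11 -0.0305 to 0.0344, Slc25a14 -0.018 to 0.0483, Slc25a17 -0.0687 to 0.0081, Slc25a30 -0.0422 to 0.39, Slc25a36 -0.0266 to 0.0471, Slc25a37 -0.0344 to 0.17, Slc25a48 -0.15 to 0.16, Slc25a5 -0.00812 to 0.0568 and Ucp2 -0.15 to 0.13. With all libraries, the genes whose sign changed on leaving 1 out lay between -0.09 (Slc25a10) and 0.08 (Slc25a37). Some whose sign changed in other settings lay farther from 0, such as Slc25a47 at -0.19 and Slc25a23 at 0.17. The causes of the sign changes were not tested. Over all values recomputed, 1310 kept direction and side of the threshold, 92 changed sign, 44 lost a call and 16 gained one. Tested members had 31 recovered reads or more in each library, and members below the level tested as few as 4.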
